A study of Mus musculus with 30 samples.

Results

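10 genes are described here, the cytosolic sensors of RNA and DNA and the proteins that carry their signal, in mouse dendritic cells differentiated from bone marrow with the growth factor FLT3L at 200 ng/ml. They were named by gene symbol, and the set was chosen with earlier results of these data known: Ddx58, Ifih1, Dhx58, Mavs, Tmem173, Mb21d1, Zbp1, Trex1, Tbk1 and Ikbke. Each of the 10 was present once among the 25611 gene rows, and all 10 were among the 14808 genes that passed the filter on low counts. The libraries came from cells with a knockout of Rubcn (KO) or from wild-type cells (WT). Cells of both genotypes had no treatment or were given, for 30 min or for 4 h, either OVA protein or apoptotic Jurkat cells; Jurkat is a T-cell line of human origin. This makes 10 groups of 3 libraries. The labels do not say whether the 3 libraries of a group came from separate mice or cultures, so p-values measure the spread between these libraries, which may be technical. The labels give no detail of the knockout allele, the strain, or the age or sex of the mice.

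Total counts ran from 9734778, in KO 30 min OVA replicate 3, to 51642601. The lowest count of any of the 10 genes in any library was 71, for Zbp1 in that shallowest library. Values are given as counts-per-million (CPM) on effective library sizes after TMM scaling, and a gene was called changed at a false discovery rate (FDR) under 0.05 in edgeR's quasi-likelihood F test over all genes tested. TMM factors were 0.765 to 0.813 in the WT 4 h Jurkat libraries and 0.836 to 0.842 in the KO 4 h Jurkat libraries. In the other libraries they were 1.03 to 1.07. Rubcn, the targeted gene, was lower in KO but not lost: it measured 95.6, 96.6 and 105 CPM in the untreated WT libraries and 70.4, 72.2 and 75.8 CPM in the untreated KO libraries. Rubcn groups did not overlap in any of the 5 conditions. Where libraries are said not to overlap, here and below, the share of all genes without overlap was not counted. KO 4 h Jurkat replicate 2 stood apart from its group: the ribosomal RNA precursor Rn45s took 3.90% of its counts, against 0.0949% to 0.384% in the other 29 libraries. A chi-square of counts per degree of freedom set it at 122 and 127 from replicates 1 and 3, where the other 28 pairs of replicates were at 2.18 to 15.8. Without Rn45s, Lars2 and Mir6236, 3 genes chosen after their values were seen, those 2 pairs were at 6.31 and 4.65. Markers of plasmacytoid dendritic cells, of both classes of conventional dendritic cells and of monocytes or macrophages were all above 1 CPM in every group, 8 of 8 in each list. Because whole cultures were sequenced, fewer cells of a type and less RNA per cell cannot be told apart.

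RIG-I (Ddx58) and MDA5 (Ifih1) are helicases that bind foreign or misplaced double-stranded RNA in the cytosol, and LGP2 (Dhx58) is a related helicase without signalling domains that tunes them; both signal through MAVS on mitochondria. Cytosolic DNA is bound by cGAS (Mb21d1), whose cyclic dinucleotide product activates STING (Tmem173), while the nuclease TREX1 removes such DNA and ZBP1 recognises Z-form nucleic acid. MAVS and STING engage the kinases TBK1 and IKKε (Ikbke), which activate the factors that induce type I interferon, and many of the sensors are themselves interferon-induced genes.

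Promoter sequence is shown for both RNA helicases that rose most in wild-type cells, because they moved together, and for the adaptor gene that fell. The sequences are those of RefSeq on GRCm38.p6, 5′ to 3′ on the strand of the gene. The interferon-stimulated response element was searched on both strands as GAAA, any 2 bases and GAAA again, in the 250 bases before and 50 bases after each start. It was found at Ddx58, 3 bases after the start on the reverse strand, and at Ifih1, 33 bases after the start. The windows around these matches, with the match in capitals, lie at chr4:40239804-40239833 and chr2:62646206-62646235, both on the minus strand:
Ddx58 window: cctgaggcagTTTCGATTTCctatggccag
Ifih1 window: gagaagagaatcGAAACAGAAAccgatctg
The 250 bases before the start of Ddx58 (chr4:40239826-40240075, minus strand), Ifih1 (chr2:62646256-62646505, minus strand) and Mavs (chr2:131233813-131234062, plus strand) read:
Ddx58 upstream: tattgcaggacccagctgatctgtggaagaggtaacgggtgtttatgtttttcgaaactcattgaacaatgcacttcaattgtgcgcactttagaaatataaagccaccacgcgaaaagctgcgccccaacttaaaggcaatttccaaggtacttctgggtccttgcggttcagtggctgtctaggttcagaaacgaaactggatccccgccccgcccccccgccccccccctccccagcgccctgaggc
Ifih1 upstream: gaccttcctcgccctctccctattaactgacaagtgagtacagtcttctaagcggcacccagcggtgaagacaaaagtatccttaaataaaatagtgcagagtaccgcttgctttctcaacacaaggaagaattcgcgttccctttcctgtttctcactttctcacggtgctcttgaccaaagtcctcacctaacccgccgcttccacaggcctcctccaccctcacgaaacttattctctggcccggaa
Mavs upstream: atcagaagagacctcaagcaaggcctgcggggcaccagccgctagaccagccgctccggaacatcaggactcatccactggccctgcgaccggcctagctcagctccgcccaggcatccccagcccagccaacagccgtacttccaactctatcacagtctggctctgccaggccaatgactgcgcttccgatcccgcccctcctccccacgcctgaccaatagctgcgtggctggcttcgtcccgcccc
These letters were not in the windows of Mavs, Mb21d1, Trex1, Tbk1 or Ikbke. Dhx58 and Zbp1 were not matched to a promoter, and Tmem173 was not searched here. Over all 32851 promoters of that length, 3.44% held the element. The STAT-binding element searched, also on both strands, as TTC, any 3 bases and GAA, was in none of the windows of the 7 genes searched and in 8.3% of all promoters. A match describes letters only and is not evidence of binding.

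In untreated WT cells the order of levels per kilobase of exon (GENCODE M21 union exons, which may not be the exons counted) ran from Trex1, at 127 ± 6.29 CPM per kb (SD, n = 3), and Tmem173, at 102 ± 4.54, down to Ikbke, at 2.04 ± 0.125. Between them came Dhx58 at 24.6, Tbk1 at 22.1, Mavs at 12.6, Mb21d1 at 9.16, Ddx58 at 5.48, Zbp1 at 4.75 and Ifih1 at 4.62 CPM per kb. Neighbours in that order did not overlap between libraries, except Zbp1 and Ifih1, which did. In untreated KO cells Tmem173 stood first at 103 ± 1.28 CPM per kb and Trex1 second at 95.7 ± 2.86. After 4 h with Jurkat cells the order changed in both genotypes: Trex1 stood first, at 429 ± 19.8 CPM per kb in WT and 385 ± 15.6 in KO, and Dhx58 second, at 192 ± 10.05 and 163 ± 8.9. Mavs was then last, at 5.35 ± 0.137 in WT and 5.59 ± 0.361 in KO.

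The genes lie on these intervals of the mm10 build: Ddx58 (Entrez 230073) on chromosome 4 at 40203777 to 40239825, Ifih1 (Entrez 71586) on chromosome 2 at 62595793 to 62646255, and Dhx58 (Entrez 80861) on chromosome 11 at 100694884 to 100704271. Mavs (Entrez 228607) lies on chromosome 2 at 131234063 to 131248024 and Tmem173 (Entrez 72512) on chromosome 18 at 35733678 to 35740554. Mb21d1 (Entrez 214763) lies on chromosome 9 at 78430518 to 78443237, Zbp1 (Entrez 58203) on chromosome 2 at 173206612 to 173218922, and Trex1 (Entrez 22040) on chromosome 9 at 109057932 to 109059723. The kinase genes are Tbk1 (Entrez 56480) on chromosome 10 at 121546456 to 121586794 and Ikbke (Entrez 56489) on chromosome 1 at 131254602 to 131279563. No other gene row overlapped any of these intervals.

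**Figure D1:**
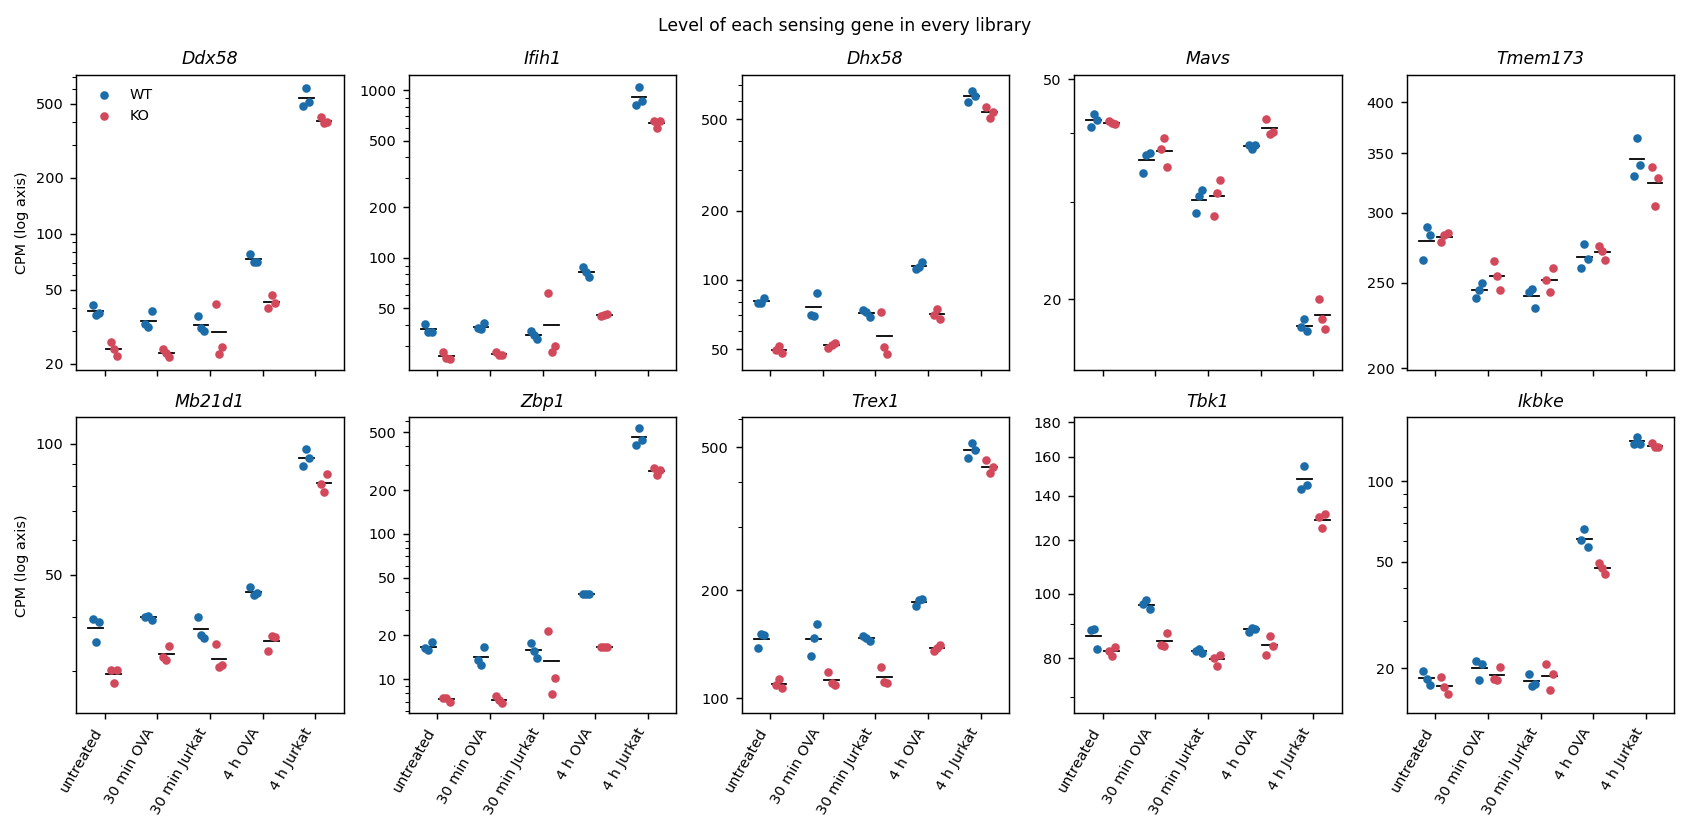
Level of each of the 10 genes in all 30 libraries, as CPM on a log axis, by treatment; blue points are WT, red points KO, and black bars the mean of 3 libraries. After 4 h with Jurkat cells 9 of the 10 genes stand above untreated cells on this TMM scale and Mavs below; for Tmem173 the direction turns when libraries are scaled by total counts.

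In untreated cells the sensors and Trex1 were lower in the KO libraries, while the adaptors and kinases were not called. Of these 10 genes, 6 were lower in KO and none was higher, against 3.97% of all genes called lower and 6% called higher. The median log2 fold change of the 10 genes was -0.39, and that of all genes was -0.01. Ddx58 measured 41.4, 36.8 and 37.8 CPM in WT and 26.1, 23.98 and 22.1 CPM in KO, a log2 fold change of -0.68 ± 0.14 (SE; edgeR FDR 0.00125). Ifih1 measured 40.6, 36.1 and 36.4 CPM in WT and 27.6, 25.1 and 25.1 CPM in KO (-0.54 ± 0.16, edgeR FDR 0.0332). Dhx58 measured 79.5, 79.0 and 83.2 CPM in WT and 49.3, 51.3 and 48.0 CPM in KO (-0.70 ± 0.09, edgeR FDR 7.52e-06). In all 3 helicase genes every KO library was below every WT library. The Ifih1 call was lost on leaving out any 1 of these 6 libraries, with edgeR FDR from 0.0602 to 0.11 and log2 fold changes from -0.59 to -0.48.

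Among Zbp1, Mb21d1 and Trex1 the difference was largest in Zbp1. Zbp1 measured 16.4, 15.8 and 18.1 CPM in untreated WT and 7.48, 7.38 and 6.91 CPM in untreated KO, 2.31-fold lower in KO (log2 -1.21 ± 0.20, edgeR FDR 0.000159). Mb21d1 measured 39.5, 35.0 and 38.9 CPM in WT and 30.2, 28.3 and 30.1 CPM in KO (-0.36 ± 0.05, edgeR FDR 4.83e-05). Trex1, the nuclease, measured 138, 151 and 150 CPM in WT and 109, 113 and 107 CPM in KO (-0.41 ± 0.06, edgeR FDR 6.44e-06). The groups of these 3 genes did not overlap.

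The adaptors and kinases showed no called difference in untreated cells. Mavs measured 40.9 to 43.2 CPM in WT and 41.6 to 41.9 in KO, and Tmem173 measured 265 to 289 in WT and 278 to 285 in KO. Their log2 fold changes were -0.02 ± 0.05 and 0.01 ± 0.04. Tbk1 measured 82.6 to 88.6 CPM in WT and 80.8 to 83.4 in KO (-0.07 ± 0.03, edgeR FDR 0.208). Ikbke measured 17.3 to 19.6 CPM in WT and 16.01 to 18.6 in KO (-0.10 ± 0.08, edgeR FDR 0.505). All 4 pairs of groups overlapped. Neither Mavs nor Tmem173 was called between genotypes in any of the 5 conditions by this test, while DESeq2 called Tmem173 lower in KO at 4 h Jurkat (-0.11, FDR 0.0459); Mavs differences ran from -0.02 to 0.11 and Tmem173 differences from -0.09 to 0.06.

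Markers of other cells moved with genotype in the same untreated libraries. The 7 basophil or mast cell markers summed to 22.2 to 28.6 CPM in WT and 56.6 to 87.5 CPM in KO, and the stroma list to 546 to 626 and 701 to 880 CPM. The 8 plasmacytoid dendritic cell markers summed to 2244 to 2269 CPM in WT and 1997 to 2158 CPM in KO, and in the other 4 conditions the ranges of these 3 lists lay apart in the same direction. The T-cell list was at 33.7 to 35.0 CPM in untreated WT and 47.6 to 50.1 CPM in untreated KO. The sum for type 2 conventional dendritic cells was 1775 to 1840 CPM in untreated WT and 1855 to 2002 CPM in untreated KO, while the sums for type 1 conventional dendritic cells, monocytes or macrophages and B cells overlapped. In the other 4 conditions the monocyte or macrophage sums were lower in KO with no overlap, and the B-cell sums were higher in KO with no overlap in 3 of them. The part of these differences in the lower sensor levels was not tested.

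With OVA the same direction was seen. At 30 min 7 genes were lower in KO and none higher, against 6.13% of all genes lower and 6.25% higher. Ddx58 was 34.2 ± 3.73 CPM in WT and 22.9 ± 1.22 in KO (SD, n = 3; log2 -0.56 ± 0.15), and Zbp1 was 14.2 ± 2.11 and 7.22 ± 0.399 (-0.96 ± 0.22). The seventh gene was the kinase gene Tbk1, at 96.5, 97.7 and 94.7 CPM in WT and 83.8, 83.6 and 87.4 CPM in KO (-0.19 ± 0.04, edgeR FDR 0.000693). The Ifih1 call at 30 min (-0.54 ± 0.17, edgeR FDR 0.0356) was lost without any 1 of its 6 libraries. The Ddx58 call was lost without KO 30 min OVA replicate 2 (edgeR FDR 0.072) or WT 30 min OVA replicate 3 (edgeR FDR 0.054).

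At 4 h of OVA 7 genes were again lower in KO and none higher, against 6.35% of all genes lower and 6.22% higher. Zbp1 measured 38.4, 38.7 and 38.9 CPM in WT and 16.7, 16.5 and 16.7 CPM in KO, 2.32-fold lower (log2 -1.21 ± 0.17, edgeR FDR 1.16e-05). Ifih1 measured 88.7, 82.8 and 77.1 CPM in WT and 45.0, 45.9 and 46.3 CPM in KO (-0.86 ± 0.16, edgeR FDR 0.000269). Ddx58 was 73.1 ± 4.41 and 43.1 ± 3.55 CPM (-0.76 ± 0.13), and Dhx58 was 115 ± 4.44 and 70.7 ± 3.41 (-0.70 ± 0.09). The kinase gene Ikbke, not called between genotypes in the other 4 conditions, measured 60.4, 66.2 and 56.9 CPM in WT and 49.4, 47.5 and 45.1 CPM in KO (-0.37 ± 0.07, edgeR FDR 0.000215). Whether this differed from the untreated difference was tested and not called (difference -0.27 ± 0.10, edgeR FDR 0.559). The 7 calls were kept without any 1 of the 6 libraries.

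**Figure D2:**
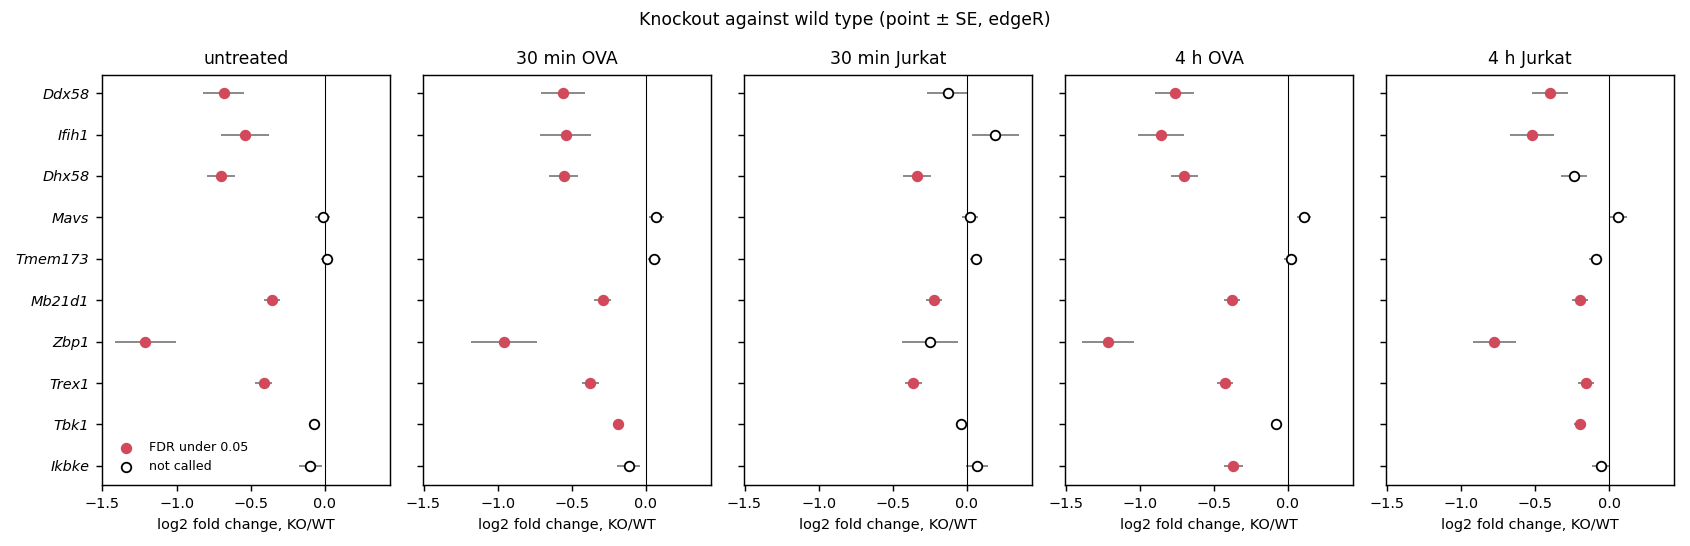
Log2 fold change of KO against WT for each gene in the 5 conditions, with bars of 1 SE; filled points passed FDR under 0.05. Zbp1 stands lowest in 4 of the 5 panels, and Mavs and Tmem173 lie near 0 in all 5.

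After 4 h with Jurkat cells 6 genes were lower in KO and none higher, against 13.5% of all genes lower and 9.37% higher. Zbp1 measured 407, 537 and 447 CPM in WT and 284, 255 and 275 CPM in KO (log2 -0.77 ± 0.15, edgeR FDR 0.000316). Ifih1 measured 819, 1053 and 867 CPM in WT and 659, 596 and 654 CPM in KO (-0.52 ± 0.15, edgeR FDR 0.0101). Ddx58 (-0.40 ± 0.12), Mb21d1 (-0.20 ± 0.05), Trex1 (-0.16 ± 0.05) and Tbk1 (-0.20 ± 0.03) were the other 4. Dhx58, at 596, 662 and 632 CPM in WT and 563, 505 and 535 CPM in KO, did not overlap and was not called (-0.24 ± 0.09, edgeR FDR 0.0536). Dhx58 was called lower with the compared groups only (edgeR FDR 0.0147), DESeq2 size factors in edgeR (FDR 0.0401), no filter (edgeR FDR 0.0441) or without WT 4 h Jurkat replicate 1 (edgeR FDR 0.0471). The count fell to 2 without KO 4 h Jurkat replicate 2, the library high in Rn45s, or without WT 4 h Jurkat replicate 2, when Ddx58, Ifih1, Mb21d1 and Trex1 were no longer called. Trex1 was also lost without either genotype's replicate 3 (edgeR FDR 0.0811 and 0.075) and with the compared groups only (edgeR FDR 0.0738). When libraries were scaled by total counts, Mb21d1 (-0.11, edgeR FDR 0.0901) and Trex1 (-0.07, edgeR FDR 0.288) were not called, so these calls depend on the scaling.

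At 30 min with Jurkat cells 3 genes were lower in KO and none higher, against 3.67% of all genes lower and 5.58% higher. They were Trex1 (-0.36 ± 0.06, edgeR FDR 7.26e-05), Mb21d1 (-0.22 ± 0.05) and Dhx58 (-0.33 ± 0.09). This group holds a library that stands apart in some of these genes, KO replicate 1. Over all genes its chi-square per degree of freedom was 11.8 and 12.3 from replicates 2 and 3, which were 3.41 apart. These values lie within the 2.18 to 15.8 of the 28 pairs without KO 4 h Jurkat replicate 2. Ddx58 measured 42.1 CPM in KO replicate 1 and 22.7 and 24.5 CPM in the other 2 KO libraries. There Ifih1 measured 61.5 against 27.5 and 30.0, Zbp1 measured 21.6 against 7.95 and 10.2, and Dhx58 measured 72.1 against 51.0 and 47.5. Irf7, an interferon-induced factor, measured 163 CPM there and 79.9 and 88.5 CPM in the other 2. The 6 interferon genes summed to 24 counts in that library, to 1 and 3 counts in the other 2, and to 0 in each untreated KO library. Its summed T-cell list was 73.5 CPM, against 73.2 and 63.4 CPM in replicates 2 and 3. The part of these differences in its sensor levels was not tested.

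KO replicate 1 was singled out by its levels of these same genes, after their values were seen. A fit without it is therefore no independent test of their direction. Without that library 6 of the 10 genes were called lower in KO at 30 min with Jurkat cells and none higher. In that fit 1139 of all genes were called, and 58.4% of those were higher. Ddx58 was then at log2 -0.46 (edgeR FDR 0.00327), Zbp1 at -0.79 (edgeR FDR 7.77e-05), and Ifih1, at 0.19 ± 0.16 with it, was at -0.27 (edgeR FDR 0.0427). The direction for Ifih1 thus rests on 1 library. Dhx58 and Mb21d1 were lost on leaving out KO replicate 2, KO replicate 3 or WT replicate 1, and Dhx58 also on leaving out WT replicate 2.

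**Figure D3:**
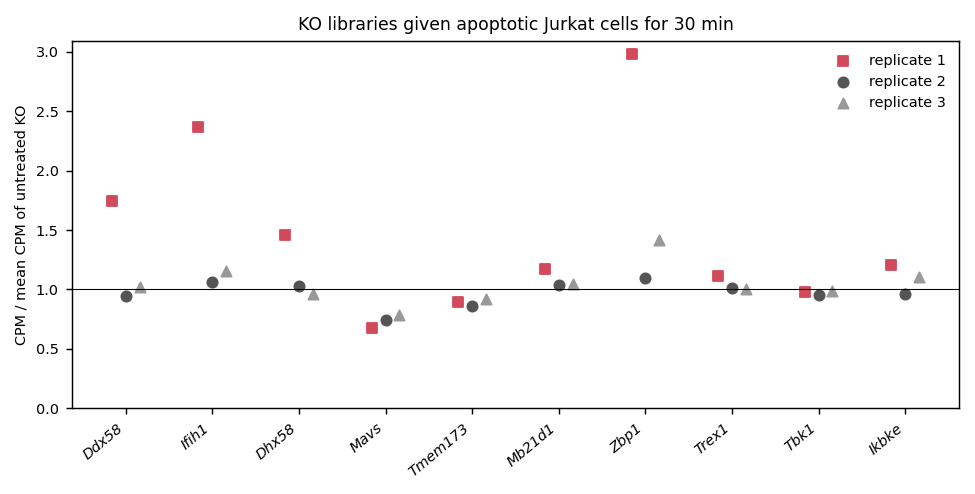
Level of each gene in the 3 KO libraries given Jurkat cells for 30 min, as a multiple of the mean of untreated KO cells (line at 1). Replicate 1 stands at 2.98 for Zbp1 and 2.37 for Ifih1, and replicates 2 and 3 at 0.942 to 1.41 for the 3 helicase genes and Zbp1.

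After 4 h of OVA the sensors, Trex1 and Ikbke were higher than in untreated cells in both genotypes. In WT 7 genes rose and 1 fell, against 11.9% of all genes higher and 11.7% lower than in untreated cells; in KO 7 rose and none fell, against 5.94% higher and 5.69% lower. These comparisons and those that follow share the untreated libraries of each genotype. The labels give no time for the untreated cells, and no group was kept for 4 h without OVA or Jurkat cells. Against untreated cells, a treatment therefore cannot be told apart from further time in culture or handling. Ikbke rose most on the fold scale, from 19.6, 18.3 and 17.3 CPM to 60.4, 66.2 and 56.9 CPM in WT. Its rise was 3.32-fold in WT (log2 1.73 ± 0.07, edgeR FDR 1.05e-16) and 2.75-fold in KO (1.46 ± 0.07, edgeR FDR 3.48e-14). Zbp1 rose 2.3-fold in each genotype, Ifih1 2.2-fold in WT and 1.76-fold in KO, and Ddx58 1.89-fold and 1.79-fold. Dhx58 rose 1.42-fold in WT and 1.43-fold in KO, Trex1 1.27-fold and 1.26-fold, and Mb21d1 1.21-fold and 1.19-fold. The treated and untreated libraries of these 7 genes did not overlap in either genotype, and how common this was over all genes was not counted.

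The remaining 3 genes moved little with OVA. Mavs was at 40.9, 43.2 and 42.2 CPM in untreated WT cells and 38.0, 37.4 and 38.0 CPM after 4 h (log2 -0.16 ± 0.05, edgeR FDR 0.023), a call lost without WT 4 h OVA replicate 2 (edgeR FDR 0.0728), WT untreated replicate 2 (0.0907) or WT untreated replicate 3 (0.0614). In KO Mavs was not called (-0.03 ± 0.05), and the genotypes' responses were not shown to differ (0.12 ± 0.07, edgeR FDR 0.72). Tmem173 (-0.06 ± 0.04 in each genotype) and Tbk1 (0.03 ± 0.03 in each) were not called. T-cell markers stayed at 31.6 to 33.6 CPM in WT and 45.7 to 46.9 CPM in KO with OVA, near the untreated 33.7 to 35.0 and 47.6 to 50.1.

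After 4 h with Jurkat cells all 10 genes were called in both genotypes, 9 higher and 1 lower in each. In WT 38.9% of all genes were higher and 40.6% lower, and in KO 37.5% were higher and 41% lower, so a call by itself was common. The members' median log2 fold change was 2.34 in WT and 2.49 in KO, beside -0.02 and -0.03 over all genes. Zbp1 rose from 16.8 ± 1.17 to 464 ± 66.8 CPM in WT (SD, n = 3), 27.6-fold (log2 4.79 ± 0.18), and from 7.26 ± 0.301 to 271 ± 14.9 CPM in KO, 37.4-fold (5.23 ± 0.19). Ifih1 rose from 37.7 ± 2.49 to 913 ± 123 CPM in WT, 24.2-fold, and from 25.9 ± 1.41 to 636 ± 35.1 CPM in KO, 24.5-fold. Ddx58 rose 13.8-fold in WT, to 485, 608 and 508 CPM, and 16.8-fold in KO, to 422, 393 and 400 CPM. Dhx58 rose 7.82-fold and 10.8-fold.

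Trex1, Mb21d1 and Tbk1 rose by smaller folds than these 4 genes, and Ikbke in WT was close to Dhx58. Trex1 rose 3.36-fold in WT and 4.02-fold in KO, and Mb21d1 2.46-fold and 2.75-fold. Ikbke rose 7.65-fold in WT, to 138, 147 and 138 CPM, and 7.9-fold in KO, to 139, 135 and 134 CPM. Its partner kinase gene Tbk1 rose 1.71-fold in WT, from 88.1, 88.6 and 82.6 to 143, 155 and 145 CPM, and 1.57-fold in KO. Every treated library was above every untreated library in these genes.

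Both adaptors behaved otherwise. Mavs fell in WT from 40.9, 43.2 and 42.2 CPM to 17.8, 18.4 and 17.5 CPM (log2 -1.23 ± 0.05, edgeR FDR 1.76e-18) and in KO from 41.9, 41.6 and 41.6 CPM to 20.0, 18.4 and 17.7 CPM (-1.16 ± 0.05, edgeR FDR 6.54e-18). Tmem173 was at 265, 289 and 283 CPM in untreated WT cells and 330, 364 and 339 CPM after 4 h (0.31 ± 0.04), and in KO at 278, 283 and 285 and then 338, 305 and 328 CPM (0.20 ± 0.04). Scaling by total counts moved the median of all genes in these comparisons to -0.42 in WT and -0.37 in KO, and turned Tmem173 to -0.10 (edgeR FDR 0.0199) in WT and -0.14 (edgeR FDR 0.00167) in KO. The sign for Tmem173 thus depends on the scaling, while the other 9 genes kept theirs.

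**Figure D4:**
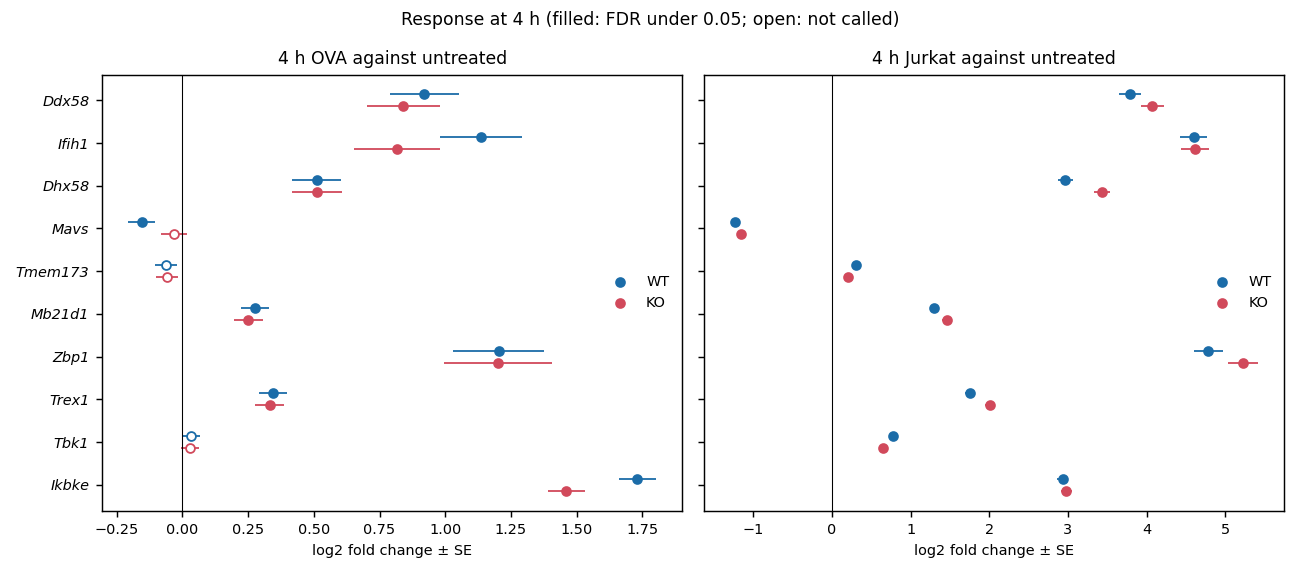
Log2 fold change against untreated cells after 4 h with OVA (left) or Jurkat cells (right), in WT (blue) and KO (red), with bars of 1 SE; the axes differ in range. With Jurkat cells Zbp1 reached 4.79 in WT and 5.23 in KO and Mavs -1.23 and -1.16; the small rise of Tmem173 is on the TMM scale and turns with total counts.

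Compared with OVA at the same time, Jurkat cells gave the same 9 genes higher and Mavs lower in both genotypes on the TMM scale. In WT 37.2% of all genes were higher and 40.3% lower, and in KO 36.3% and 40.1%. Zbp1 was 12-fold higher in WT and 16.3-fold in KO, and Ikbke 2.31-fold and 2.87-fold. Mavs was at log2 -1.08 ± 0.05 in WT and -1.13 ± 0.05 in KO. With total counts Tmem173 turned to -0.021 (edgeR FDR 0.615) in WT and -0.084 (edgeR FDR 0.0486) in KO in this comparison too.

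Markers of T cells, which include any human RNA counted on mouse genes, moved with the Jurkat treatment. The T-cell list, 15 of 18 genes present, summed to 33.7 to 35.0 CPM in untreated WT cells, 72.9 to 77.9 CPM after 30 min and 141 to 179 CPM after 4 h. In KO it summed to 47.6 to 50.1, 63.4 to 73.5 and 125 to 145 CPM. Cd3e was at 0.0778 CPM in untreated WT cells and 6.09 CPM after 4 h, while Cd3d was at 0.112 and 0.0387 CPM. The part of Jurkat RNA in the 4 h values was not tested.

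At 30 min Mavs and Tmem173 were called lower in WT and no sensor was called higher. With Jurkat cells in WT Mavs went from 40.9, 43.2 and 42.2 CPM to 28.6, 30.7 and 31.5 CPM (log2 -0.48 ± 0.05, edgeR FDR 4.14e-08) and Tmem173 from 265, 289 and 283 to 244, 246 and 234 CPM (-0.21 ± 0.04, edgeR FDR 0.000442). These were the only 2 genes called, both lower, against 14.5% of all genes lower and 14.2% higher. In KO Mavs (-0.44 ± 0.05) and Tmem173 (-0.16 ± 0.04) fell too, against 8.26% of all genes lower, and Ifih1 (0.61 ± 0.16) and Zbp1 (0.87 ± 0.21) were called higher, against 8.72%. Both higher calls rest on KO replicate 1: without it Ifih1 was at 0.15 (edgeR FDR 0.291) and Zbp1 at 0.32 (edgeR FDR 0.121). The Tmem173 call in KO was lost without KO 30 min Jurkat replicate 2 (edgeR FDR 0.0541).

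With OVA for 30 min, WT cells had Mavs (-0.24 ± 0.05, edgeR FDR 0.0022) and Tmem173 (-0.19 ± 0.04, edgeR FDR 0.00417) lower and Tbk1 (0.16 ± 0.03, edgeR FDR 0.00333) higher, against 5.15% of all genes lower and 5.51% higher. The Tbk1 call was lost when only the compared groups were fitted (edgeR FDR 0.0646). In KO no member was called by edgeR, against 1.88% of all genes higher and 1.88% lower; 3 had an unadjusted p under 0.05, and DESeq2 called 1, Tmem173 (-0.14, FDR 0.0196). Set against OVA at 30 min, Jurkat cells in WT had Mavs (-0.24 ± 0.05) and Tbk1 (-0.23 ± 0.03) lower, with 12.3% of all genes lower and 11.9% higher. In KO Mavs was lower (-0.29 ± 0.05; 4.92% of all genes) and Ifih1 and Zbp1 were higher (5.3%). Without KO 30 min Jurkat replicate 1 Ifih1 (0.10, edgeR FDR 0.567) and Zbp1 (0.31, edgeR FDR 0.216) were not called in that comparison.

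The difference between genotypes in each response was tested directly. For 30 min OVA no member was called, with 0% of all genes called in either direction; 1 member had an unadjusted p under 0.05. For 30 min Jurkat no member was called, with 0% of all genes higher and 0.00675% lower, and 4 members had an unadjusted p under 0.05. On leaving out a library the difference ran from 0.27 to 0.94 for Ifih1 and from 0.42 to 1.23 for Zbp1. For 4 h OVA no member was called either, with 0% higher and 0.0405% lower, and 1 member had an unadjusted p under 0.05. DESeq2 called no member in these 3 tests. For 4 h Jurkat 1 member was called, Dhx58, against 1.72% of all genes higher and 2.55% lower. On the fold scale its rise was larger in KO by log2 0.46 ± 0.13 (edgeR FDR 0.0363). That call was lost on leaving out any 1 of 10 of the 12 libraries, as the closing part lists. By FDR Trex1 was next, at 0.26 ± 0.08 (edgeR FDR 0.053). By size Zbp1 was nearer to Dhx58: on leaving out a library it ran from 0.35 to 0.56, not called (edgeR FDR 0.263 to 0.506).

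Other genes of these pathways were taken from lists of partners, also chosen with earlier results of these data known. Between genotypes in untreated cells 3.97% of all genes were lower in KO and 6% higher. There 4 of 18 RNA-sensing partners were lower in KO and none higher: Ddx60, a helicase that aids RIG-I, was 7.80 ± 1.79 CPM in WT and 3.76 ± 0.262 in KO, and Eif2ak2, the RNA-activated kinase PKR, was 85.6 ± 4.33 and 56.2 ± 5.13. Adar, the RNA-editing enzyme that restrains MDA5, was 211 ± 12.2 and 162 ± 1.65. Of 18 brakes on the pathway 3 were lower and none higher, with Nlrc5 at 138 ± 7.26 in WT and 85.9 ± 1.39 CPM in KO. Of 21 DNA-sensing partners 2 were lower and none higher, Ifi204 (log2 -1.07 ± 0.23) and Ifi35 (-0.34 ± 0.07). Of 8 clearing enzymes tested, of 11 listed, Samhd1 was lower (-0.26 ± 0.05) and Enpp1, which degrades the cGAS product, higher (0.46 ± 0.11). Of 22 adaptors and kinases downstream 1 was lower, the factor Irf7, at 157 ± 9.36 CPM in WT and 74.3 ± 1.9 in KO (log2 -1.08 ± 0.15).

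After 4 h of OVA 5 of 18 RNA-sensing partners, 4 of 18 brakes, 4 of 21 DNA-sensing partners, 2 of 8 clearing enzymes and 4 of 22 downstream genes were lower in KO than in WT, and 1, a brake, was higher. Of all genes 6.35% were lower and 6.22% higher. Irf7 was then 261 ± 10.01 CPM in WT and 126 ± 5.87 in KO, Ifi204, a DNA-binding protein of the PYHIN family, was 65.3 ± 2.19 and 28.7 ± 0.945, and Eif2ak2 was 136 ± 4.02 and 81.8 ± 7.34. Against untreated cells OVA for 4 h had 9 of the RNA-sensing partners higher and 1 lower in WT, where 11.9% of all genes were higher and 11.7% lower. In KO 4 were higher and none lower, where 5.94% of all genes were higher and 5.69% lower.

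After 4 h with Jurkat cells 15 of the 18 RNA-sensing partners rose and 3 fell in WT, and 14 rose and 3 fell in KO. Of all genes 38.9% were higher and 40.6% lower in WT, and 37.5% and 41% in KO. Trim25, the ubiquitin ligase of RIG-I, went from 231 ± 8.26 to 657 ± 30.3 CPM in WT. Of the 18 brakes 7 rose and 9 fell in WT (median log2 -0.18), and 6 rose and 7 fell in KO (-0.14). Among those that rose, Tnfaip3, which encodes the brake A20, went from 58.1 ± 0.621 to 1107 ± 67.8 CPM in WT and from 52.4 ± 2.46 to 960 ± 38.4 CPM in KO. Of the 21 DNA-sensing partners 10 rose and 9 fell in WT, and 10 rose and 10 fell in KO, close to the shares of all genes. Xrcc5, which encodes a subunit of the DNA-end-binding Ku complex, went from 1.14 ± 0.271 to 24.9 ± 2.9 CPM in WT, and was at 9.05 ± 0.686 CPM at 30 min with Jurkat cells. The T-cell list also rose in WT, with means of 34.5 CPM untreated, 75.2 at 30 min and 165 at 4 h. The part of Jurkat RNA in the Xrcc5 counts was not tested. Of the 22 downstream genes 13 rose in each genotype, and 7 fell in WT and 6 in KO, Optn, an adaptor of TBK1, going from 4.79 ± 0.274 to 73.4 ± 7.33 CPM in WT. Of the 8 clearing enzymes tested 3 rose and 4 fell in each genotype (median log2 -0.19 in WT and -0.23 in KO). Among those that rose, Dnase1l3, a secreted nuclease, went from 3.17 ± 0.152 to 136 ± 9.14 CPM in WT and from 2.84 ± 0.134 to 85.9 ± 5.22 CPM in KO.

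The interferon genes, the products of this signalling, were near 0 except after 4 h with Jurkat cells. Of the 5 tested, 1 was called higher than in untreated cells with 4 h OVA in WT, beside 11.9% of all genes. With 30 min Jurkat in KO 1 was called higher, beside 8.72%. With 4 h OVA Ifnb1 had 6, 11 and 4 counts in WT and 4, 1 and 0 in KO. Ifnb1 had 0 counts in all 6 untreated libraries, 369, 529 and 403 counts in WT and 156, 126 and 135 counts in KO after 4 h with Jurkat cells. In CPM that was 12.5 ± 3.09 in WT and 3.68 ± 0.44 in KO (log2 -1.77 ± 0.22, KO against WT). All 5 interferon genes tested, of 6 listed, were lower in KO there; the Ifna genes are near-identical copies, so their split is uncertain. In that same comparison 8 of 18 RNA-sensing partners, 11 of 21 DNA-sensing partners, 8 of 22 downstream genes, 5 of 18 brakes and 2 of 8 clearing enzymes were lower in KO, and 2, 0, 1, 1 and 0 were higher. Of all genes 13.5% were lower and 9.37% higher.

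The genes whose pattern over the 10 group means was most like each member were found by the Pearson correlation of mean log2 CPM, a description in which the 2 groups of 4 h Jurkat weigh most. For Dhx58 they were Nlrc5 (r = 0.999), Parp12 (0.999) and the member Trex1 (0.999), and for Zbp1 Phf11d (0.999), Ifi204 (0.998) and Phf11b (0.998). For Ikbke they were Aoah (0.996), Slc16a10 (0.993) and Acp2 (0.992), and for Mavs Pbx2 (0.997), Zfp12 (0.997) and Snx32 (0.996). Over the 8 groups without 4 h Jurkat, Zbp1 was most like Herc6 (0.993), Ikbke again Aoah (0.995), and Mavs Tubgcp6 (0.996).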

How the data were processed

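The deposited data are whole-number counts of reads for each gene in 1 table, which also gives a symbol, an Entrez identifier and an mm10 interval, per the file headers. Per the labels' protocols, RNA was extracted with Trizol and a DNase step and made into TruSeq v2 libraries. The submitters' processing notes name STAR 2.5, Subread, featureCounts 1.5.0-p1 and DESeq2, with no role or order. The annotation, the use of strand and the handling of human reads and of reads shared by copies were not given in the sources used here.

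Counts were fitted with edgeR 4.0.16 in R 4.3.3: filterByExpr by group, TMM scaling, 1 mean per group over all 30 libraries, quasi-likelihood F tests of 21 contrasts, two-sided, and Benjamini-Hochberg adjustment over 14808 genes. CPM were computed from the deposited counts. SE values are |log2 fold change| over the root of F. Groups and replicate numbers come from the titles. By a chi-square of counts no 2 libraries of a group agreed within sampling noise, and KO 4 h Jurkat replicate 2 stood far from its group. The model was tested on simulated data for KO against WT in untreated cells. Of genes with 300 counts or more, 99.25% of log2 changes of 1 and 98.5% of 0.5 were called. Under 300 counts 46% and 19.8% were called, so a missing call says little there.

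Deviations of same-numbered libraries correlated at -0.11 to 0.13 (median 0.0164), and in 0 of 17 comparisons did all pairs exceed 0.1, so numbers were not taken to pair libraries. All members were described; up to 3 genes per partner list were named by the smallest p among calls with at least 5 CPM and no overlap, and for each member the 3 most alike genes were found, of which some are given. Irf7, Ifnb1, Xrcc5 and Rn45s are also given outside that rule, chosen after their values were seen. The members and lists were chosen with earlier results of these data known. Alternatives were other scalings and filters, DESeq2 1.42.0, fits of the compared groups only, a replicate block and leaving out each library.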

Additional observations from a re-analysis of the deposited data

Results flagged for a closer look

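The response of Dhx58, which encodes LGP2, to 4 h with Jurkat cells differed between genotypes by the test of the difference itself. Dhx58 went from 80.5 ± 2.3 to 630 ± 32.9 CPM in WT and from 49.5 ± 1.7 to 535 ± 29.1 CPM in KO (SD, n = 3). On the fold scale the rise was larger in KO by log2 0.46 ± 0.13 (edgeR FDR 0.0363), while the step in CPM was larger in WT. The fold difference stayed called under the 8 other scalings, filters and models, with edgeR or DESeq2 FDR from 0.000793 to 0.0479. It was lost without any 1 of 10 of the 12 libraries (edgeR FDR 0.0513 to 0.0793); KO 4 h Jurkat replicate 2 and WT 4 h Jurkat replicate 2 were the exceptions. The untreated level of Dhx58 was lower in KO, and the level after 4 h was not called between genotypes (edgeR FDR 0.0536), though it was called lower in KO under 4 alternatives (edgeR FDR 0.0147 to 0.0471).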

How the results depend on the processing

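Of 3130 values under alternatives, 3031 kept their direction or side of the threshold, 63 lost a call, 31 gained one and 5 turned; 104 of those kept changed sign where neither setting made a call. With the replicate number as a block, all 210 member results and all counts stayed on their side, for example 6 of the genes called in untreated cells. Total counts turned Tmem173 at 4 h Jurkat to -0.10 (WT) and -0.14 (KO) against untreated cells and to -0.021 and -0.084 against OVA, where the median of all genes moved to -0.42 in WT and -0.37 in KO. The share of all calls that were higher went from 40.9% to 74.8% for KO against WT at 4 h Jurkat, from 49.5% to 64.5% at 4 h OVA, and from 50.5% to 63.8% at 30 min OVA (39.6% by DESeq2; 50.0% from 60.2% in untreated cells). For 4 h Jurkat it went from 48.9% to 28.96% in WT and 47.7% to 29.2% in KO against untreated cells, from 48.0% to 26.5% and 47.5% to 27.5% against OVA, and from 40.3% to 76.8% for the genotype difference.

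All genes called numbered 891 and not 1370 for KO against WT at 30 min Jurkat with the compared groups only. Likewise they numbered 833 and not 1578 for 30 min OVA in WT, 246 and not 558 in KO, 1460 and not 2514 for 30 min Jurkat in KO, 734 and not 1514 for Jurkat against OVA at 30 min in KO, and 337 and not 631 for the genotype difference at 4 h Jurkat. DESeq2 called 22 and not 1 for the genotype difference at 30 min Jurkat, and 24 and not 6 at 4 h OVA. Leaving out a library, KO against WT called 898 to 1357 genes in untreated cells, 718 to 1792 at 30 min OVA and 708 to 1158 at 30 min Jurkat.

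Members called in KO against WT at 30 min Jurkat numbered 1 with the compared groups only and 1 to 6 on leaving out a library, where Ifih1 ran from -0.27 to 0.40. At 4 h Jurkat they numbered 2 to 7. Responses to 30 min Jurkat counted 4 in WT and 2 in KO with the compared groups only, and 2 to 6 in KO without a library. For 30 min OVA in KO, DESeq2, the block within genotype, the stricter filter and total counts each called 1 (Tmem173), as 1 did without KO 30 min OVA replicate 1. The genotype difference in the 30 min Jurkat response called 0 to 2 without a library. Ifih1 (edgeR FDR 0.0233) and Zbp1 (edgeR FDR 0.0104) were called only without KO 30 min Jurkat replicate 2, a fit that keeps KO replicate 1, high in both genes. That at 4 h Jurkat called 2, adding Trex1, with compared groups only, DESeq2, no filter, the block within genotype, the stricter filter and total counts, and 0 to 1 without a library. Jurkat against OVA at 30 min in KO called 1 with compared groups only and 1 to 4 without a library. These member counts describe only how stable the calls were, since not each has the number of all genes called in the same fit beside it. Causes were not tested. Depth limits most the values of KO 30 min OVA replicate 3.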
